A study of Homo sapiens with 24 samples.

Results

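The RNA response of ES2 ovarian carcinoma cells to depletion of IGF2BP1 was read from 6 of the 24 libraries of the series, namely all libraries of that line. The 3 control libraries (siC) came from cells transfected with control siRNAs, which the study names CEL-miR-239b. The 3 knockdown libraries (siI1) came from cells transfected with a pool of siRNAs against IGF2BP1, and all 6 were harvested 72 h after transfection. Both groups are the same unmodified line without further treatment, and the libraries of a group are described as biological replicates. A549 lung adenocarcinoma and MV3 melanoma cells, also harvested after 72 h, and PANC1 pancreatic carcinoma cells, harvested after 96 h, each with 3 libraries per group, served to show where ES2 differed. A knockdown with 1 siRNA pool in 1 line lowers the transcript without removing it, and no second pool or rescue was analysed here.

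The RNA-binding protein IGF2BP1 is abundant in the embryo, largely silent in adult tissue and made again in many tumours. It binds mRNAs in the cytoplasm and is known to shield some of them from decay and from microRNA-directed silencing, so that its depletion can lower the steady-state level of such mRNAs. Transcripts that do not bind the protein can change as well, when a signalling or transcription factor downstream of a bound mRNA changes.

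Levels are given in FPKM, the fragments assigned to a gene scaled by its length and by the size of the library. Fold changes (log2FC) are differences of log2(FPKM + 0.5) between siI1 and siC, given ± standard error (SE) of the fit over 3 against 3 libraries. Because of the added 0.5, a weakly expressed gene changed more than its log2FC says. The limma test covered all genes whose mean level in ES2 reached 0.5 FPKM, and a gene was called at an adjusted p under 0.05. The ES2 libraries held between 6421764 and 8419467 reads assigned to genes. The log2 levels of libraries of the same group correlated at r = 0.945 to 0.9503 and those of different groups at r = 0.923 to 0.934, across genes, and no ES2 library stood apart. Of the defining epithelial and ovarian carcinoma markers, KRT7, KRT8 and KRT18 were expressed, whereas MUC16 was at 0 in all 6 libraries and EPCAM, CDH1, PAX8 and WT1 stayed under 0.5 FPKM. VIM, CDH2, FN1, ZEB1 and TWIST1 were all expressed, so the labelled ovarian carcinoma line carried keratins beside a mesenchymal profile. The leukocyte marker PTPRC and the melanocyte markers MLANA, TYR and SOX10 were at 0 in every library.

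IGF2BP1 itself (chr17:48997385-49056145, plus strand in the GENCODE annotation of hg38) was measured at 13.1, 14.0 and 12.1 FPKM in the control libraries and 4.22, 4.19 and 4.03 FPKM in the knockdown libraries. The groups did not overlap, and the log2FC was -1.55 ± 0.07 with an adjusted p of 0.000115. IGF2BP2, the most abundant family member in these cells, stood at 27.9, 30.001 and 29.3 FPKM in the control and 33.3, 30.5 and 33.5 FPKM in the knockdown libraries, with a log2FC of 0.16 ± 0.05 that missed the threshold (adjusted p = 0.0931). IGF2BP3 rose slightly, from 9.83 to 11.9 FPKM, with a log2FC of 0.27 ± 0.07 and an adjusted p of 0.0419. This call was lost without siC replicate 2, siC replicate 3, siI1 replicate 1, siI1 replicate 2 or siI1 replicate 3, with an adjusted p of up to 0.129.

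Upon knockdown, 2005 protein-coding genes were downregulated and 1498 were upregulated in ES2, which is 17.9% and 13.4% of the 11171 tested. Of these, 110 fell and 182 rose at least 2-fold (0.985% and 1.63%), so that large changes were more often rises. Over all 16920 genes tested, 2201 (13%) fell and 1772 (10.5%) rose. Among 859 long intergenic non-coding RNAs (lincRNAs) tested, 43 fell (5.01%) and 80 rose (9.31%). The median log2FC was -0.03 over protein-coding genes and -0.02 over all genes. Falls made up 57.2% of the protein-coding calls, but 46.3% when every library was scaled to the same FPKM sum. Without siI1 replicate 3 the protein-coding rises numbered 958.

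Of the 12 protein-coding genes with the largest falls, several encode secreted or signalling proteins. ESM1 (chr5:54977867-55022671, minus strand), which encodes a secreted proteoglycan known from activated endothelium, was measured at 13.8, 14.4 and 12.6 FPKM in the control libraries and at 0.635, 1.13 and 0.571 FPKM in the knockdown libraries. The log2FC was -3.48 ± 0.17 (adjusted p = 0.000148), the largest fall among protein-coding genes. Of 5 markers of endothelial cells, PECAM1, VWF and KDR stayed under 0.5 FPKM, CDH5 rose from 9.59 to 15.3 FPKM and TIE1 fell from 23.9 to 14.2 FPKM; their sum was 30.3 to 38.0 FPKM per control and 28.9 to 31.0 FPKM per knockdown library, and their part in the fall of ESM1 was not tested. SERPINB2, the plasminogen activator inhibitor PAI-2, fell from 419, 425 and 445 to 83.0, 88.2 and 89.9 FPKM, a log2FC of -2.30 ± 0.05 (adjusted p = 2.83e-05). MMP1, the interstitial collagenase and among the most abundant mRNAs of the line, stood at 3930.0, 3969 and 4179 FPKM in the control and 984, 1033 and 1079 FPKM in the knockdown libraries. Its log2FC was -1.96 ± 0.06. FOXD1, a forkhead transcription factor, fell from 121 ± 7.201 to 33.3 ± 1.61 FPKM (SD, n = 3), a log2FC of -1.84 ± 0.06. BCL2A1, a pro-survival member of the BCL2 family, fell from 3.07 to 0.359 FPKM (log2FC -2.05 ± 0.21), and RAB38, a small GTPase of lysosome-related organelles, fell from 6.55 to 1.22 FPKM (log2FC -2.05 ± 0.14). The neutrophil chemokine CXCL8 (log2FC -1.82 ± 0.08), the EGF receptor ligand AREG (-1.75 ± 0.27) and the cytokine IL1A (-1.73 ± 0.17) completed the signalling genes among these 12. KRTAP2-3, a hair keratin-associated protein, fell from 13.5 to 2.33 FPKM, and its near copy KRTAP2-4 also fell, so that the share of each in the fall is uncertain. In bulk libraries, fewer cells that express a transcript and less of it per cell cannot be told apart.

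The remaining pair of these 12 genes, CCDC6 and HDLBP, fell in all 3 other lines as well. CCDC6, a coiled-coil protein found in tumour fusion genes, went from 24.8, 23.5 and 21.6 to 3.24, 3.17 and 2.77 FPKM in ES2 (log2FC -2.74 ± 0.08), with log2FC of -3.21 in A549, -2.47 in MV3 and -2.50 in PANC1. HDLBP (vigilin), an RNA-binding protein, went from 69.1, 74.8 and 67.7 to 18.2, 16.7 and 17.0 FPKM (log2FC -1.997 ± 0.06), with -2.39, -2.10 and -2.06 in A549, MV3 and PANC1. Among the genes above, ESM1 (-0.56), SERPINB2 (-0.97), KRTAP2-3 (-0.75), RAB38 (-0.74), MMP1 (-0.39), FOXD1 (-0.63), CXCL8 (-0.65) and AREG (-0.66) also fell in MV3. In A549, FOXD1 and AREG rose (0.50 and 0.75). SEPTIN2, which overlaps HDLBP on the opposite strand, rose by 0.64 on the log2 scale, and as the strand setting of the counting is not given, reads of the overlap cannot be assigned to either.

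**Figure D1:**
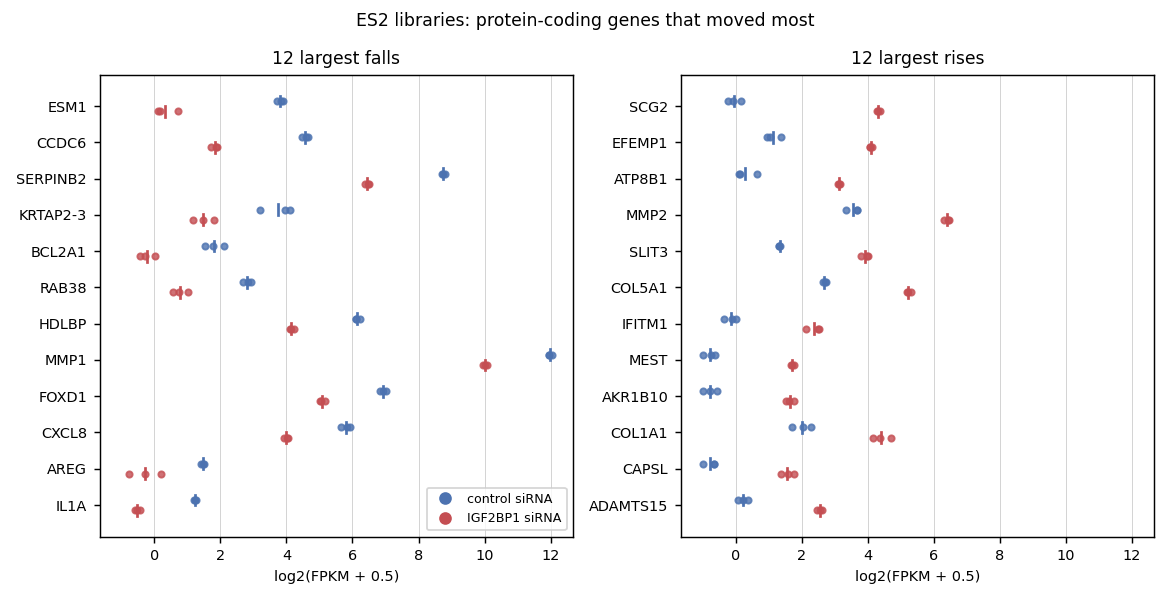
Levels of the 12 protein-coding genes with the largest falls and the 12 with the largest rises in ES2, as log2(FPKM + 0.5) on the x axis, 1 point per library and a bar at the mean of 3 (blue, control siRNA, red, IGF2BP1 siRNA). The groups of each of the 24 genes do not overlap because the genes were chosen by that rule. Most rises start from low levels (SCG2 from 0.478 FPKM) whereas MMP1 and SERPINB2 fall from means of 4026 and 429.6 FPKM.

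SCG2 (secretogranin II, chr2:223596940-223602361, minus strand), a protein of dense-core secretory granules, had the largest rise. It was measured at 0.630, 0.448 and 0.357 FPKM in the control libraries and 20.1, 18.9 and 19.2 FPKM in the knockdown libraries, a log2FC of 4.35 ± 0.12 (adjusted p = 5.55e-05), and rested on 11, 8 and 7 reads in the control libraries and 415, 370 and 441 in the knockdown libraries. Every knockdown library thus held many times the level of any control library. Other granule genes moved less. In a list of 16 tested granule, exocytosis and neuronal genes 6 rose and 1 fell (37.5% and 6.25%, beside 13.4% and 17.9% of all protein-coding genes). UCN (urocortin) stood at 1.04 ± 0.20 and the synaptic vesicle protein SV2A at 0.50 ± 0.08. The number of rises fell to 3 without siC replicate 3, siI1 replicate 1 or siI1 replicate 3. The transcriptional repressor REST, which silences neuronal genes, was itself higher (0.37 ± 0.09), a call lost without siC replicate 3, siI1 replicate 1, siI1 replicate 2 or siI1 replicate 3, with an adjusted p of up to 0.106.

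Among the other large rises, ATP8B1 (chr18:57646426-57803315, minus strand), a phospholipid flippase, rose from 1.08, 0.573 and 0.604 to 8.29, 8.42 and 8.15 FPKM (log2FC 2.83 ± 0.16). SLIT3, a secreted guidance ligand, rose from 1.998, 2.06 and 2.003 to 15.5, 13.4 and 15.4 FPKM (log2FC 2.60 ± 0.08). A further transcript on the same strand overlaps SLIT3 and rose as well (log2FC 1.79). MEST, a paternally expressed gene of the hydrolase fold, was close to silent in control cells and rested on 0, 3 and 5 reads in the control libraries and 98, 98 and 105 in the knockdown libraries (log2FC 2.51 ± 0.18). COPG2, which overlaps MEST on the opposite strand, rose by 0.39 on the log2 scale, and reads of the overlap cannot be assigned to either. AKR1B10, an aldo-keto reductase, had 3 reads in all control libraries against 107 in all knockdown libraries, a ratio of 31.0 with a 95% counting interval of 10.3 to 152.6. CAPSL, a calcium-binding protein, had 2 against 66 reads, a ratio of 28.7 (7.63 to 242). CAPSL lies 24685 bases from IL7R, the interleukin-7 receptor, which rose from 8.46 to 42.5 FPKM (log2FC 2.27 ± 0.07). These 2 intervals cover counting error only, and AKR1B10 reads may be shared with its near copy AKR1B15.

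Genes of the extracellular matrix rose. The fibrillar and basement membrane collagens, the glycoproteins around them and the enzymes that modify and crosslink them are examined here by role. Of 39 tested collagens, matrix glycoproteins and matrix-modifying enzymes, 26 rose and 4 fell (66.7% and 10.3%, beside 13.4% and 17.9% of all protein-coding genes), with a median log2FC of 0.73. COL5A1 (chr9:134641803-134844843, plus strand), which nucleates collagen fibrils, was measured at 5.73, 6.12 and 5.97 FPKM in the control libraries and 39.1, 36.4 and 35.7 FPKM in the knockdown libraries. Its log2FC was 2.54 ± 0.05 (adjusted p = 2.83e-05). Its partner chain COL5A2 rose from 8.70 to 16.7 FPKM (0.90 ± 0.08). COL1A1, a chain of type I collagen, rose from 3.65, 4.35 and 2.77 to 25.8, 17.3 and 20.04 FPKM (2.40 ± 0.19). The basement membrane chains COL4A1 and COL4A2 rose by 1.63 ± 0.06 and 1.57 ± 0.07, and COL12A1 and COL16A1, which coat fibrils, by 0.93 ± 0.04 and 1.31 ± 0.14. The 4 falls, of which 2 were lost without siC replicate 2, siI1 replicate 2 or siI1 replicate 3, included FN1 (fibronectin) from 8.43 to 4.73 FPKM (-0.77 ± 0.08) and the transmembrane collagen COL13A1 from 15.6 to 11.1 FPKM (-0.48 ± 0.07).

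Glycoproteins and enzymes followed the collagens. EFEMP1 (fibulin-3) rose from 1.57, 2.08 and 1.43 to 16.3, 16.2 and 17.0 FPKM (2.96 ± 0.12), FBN1 (fibrillin-1) from 2.999 to 14.7 FPKM (2.12 ± 0.07) and SPARC, a collagen-binding matricellular protein, from 76.2 to 243 FPKM (1.67 ± 0.08). Of 10 tested enzymes and chaperones 7 rose (70%, beside 13.4% of all protein-coding genes) and none fell at the threshold. They included the lysyl oxidases LOXL1 (1.38 ± 0.09) and LOXL2 (1.10 ± 0.05), which crosslink collagen, the hydroxylases P4HA1 (1.01 ± 0.07) and PLOD2 (1.13 ± 0.06), and the collagen chaperone SERPINH1 (1.19 ± 0.09). Of the genes that mark fibroblasts, COL3A1 and LUM were at 0 in all 6 libraries and DCN at no more than 0.0108 FPKM. The summed level of the 5 fibroblast markers was 2.88 to 4.52 FPKM per control library and 18.3 to 26.9 FPKM per knockdown library, of which COL1A1 made up nearly all. PDGFRB, the fifth of these markers, stood at 0.153, 0.171 and 0.117 FPKM in the control and 1.09, 0.913 and 0.796 FPKM in the knockdown libraries.

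Calls among receptors for the matrix were mostly rises too. Of 25 tested integrins, laminins and nidogens 13 rose and 3 fell (52% and 12%, beside 13.4% and 17.9% of all protein-coding genes). Their median log2FC was 0.30. ITGB1, the common beta chain of most matrix-binding integrins, was measured at 83.4, 77.9 and 92.3 FPKM in the control libraries and 231, 242 and 248 FPKM in the knockdown libraries, a log2FC of 1.51 ± 0.07 (adjusted p = 0.000116). ITGAV, which pairs with several beta chains, rose from 7.47, 7.43 and 7.78 to 20.7, 21.6 and 19.9 FPKM (1.40 ± 0.05). Its partner chains ITGB5 and ITGB3 rose by 1.24 ± 0.04 and 1.30 ± 0.14, and the collagen receptor chain ITGA11 by 1.84 ± 0.16 from a level of 0.245 FPKM. The laminin-binding chain ITGA6 fell from 43.7 to 29.5 FPKM (-0.55 ± 0.08), as did the laminin chain LAMB3 (-0.72 ± 0.06), while LAMA3 rose (1.22 ± 0.11). LAMA3 and LAMB3, which are chains of the same epithelial laminin, thus moved in opposite directions.

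Members of the TGF-beta pathway were examined by role, because several of the genes above belong to its textbook targets. TGF-beta ligands signal through serine/threonine kinase receptors and SMAD3 and its relatives, and the inhibitory SMAD6 and SMAD7 close the loop. Of 42 tested pathway genes 13 rose and 3 fell (31.0% and 7.14%, beside 13.4% and 17.9% of all protein-coding genes). Their median log2FC was 0.16, and 8 fell by limma voom on recovered reads. Among 9 ligand genes, BMP2 fell from 3.04 to 1.12 FPKM (-1.12 ± 0.14) whereas BMP4 (0.73 ± 0.16) and BMP1, which is a procollagen protease by function, rose, the latter from 2.47 to 7.19 FPKM (1.38 ± 0.11). TGFB1 (-0.18 ± 0.17) and TGFB2 (0.07 ± 0.09) did not pass the test. Among 10 receptors, TGFBR2 alone passed, from 37.0 to 48.0 FPKM (0.37 ± 0.05). SMAD3 rose from 24.7, 24.8 and 28.8 to 45.0, 41.0 and 41.7 FPKM (0.70 ± 0.07), and SMAD7 from 0.506, 0.661 and 0.488 to 3.42, 2.44 and 2.95 FPKM (1.70 ± 0.16, adjusted p = 0.00118). The co-repressor SKIL (0.88 ± 0.09) and SMAD6 (1.25 ± 0.18) rose too. Of 9 tested target genes 5 rose (55.6%). THBS1 (thrombospondin-1) stood at 43.8, 47.9 and 44.1 FPKM in the control libraries and 112, 107 and 107 FPKM in the knockdown libraries. The log2FC of THBS1 was 1.26 ± 0.05 and that of TGFBI, a secreted adhesion protein, 1.03 ± 0.07. CTGF, a target shared with YAP, did not follow these: it fell from 46.3 to 29.2 FPKM (-0.64 ± 0.18), a call lost without siC replicate 1, siC replicate 2, siI1 replicate 1, siI1 replicate 2 or siI1 replicate 3, with an adjusted p of up to 0.136.

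**Figure D2:**
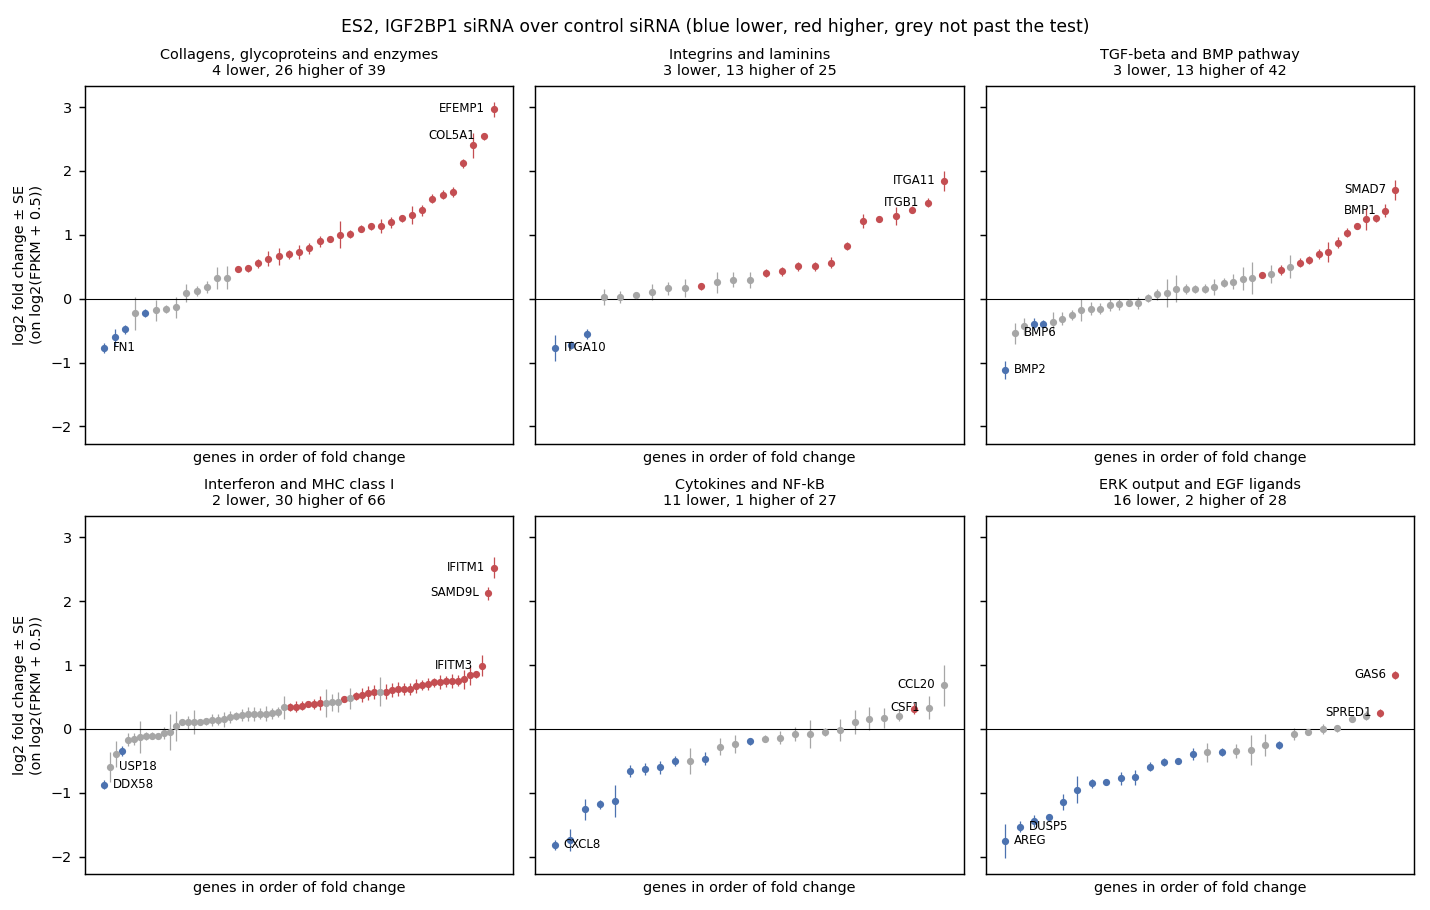
Log2FC ± SE upon IGF2BP1 knockdown in ES2 (y axis) for every tested member of 6 gene groups, in order of log2FC along the x axis (blue, lower, red, higher, grey, not past the test). Matrix, integrin, TGF-beta and interferon groups lie mostly above 0, and the cytokine and ERK groups mostly below, with 11 of 27 lower, and 16 of 28 once the EGF ligands are plotted with the ERK genes. Over all protein-coding genes 17.9% fell and 13.4% rose.

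Proteases and their inhibitors moved in both directions. Of 29 tested genes 10 fell and 11 rose (34.5% and 37.9%, beside 17.9% and 13.4% of all protein-coding genes). MMP2 (gelatinase A, chr16:55389700-55506691, plus strand) was measured at 9.72, 12.3 and 12.2 FPKM in the control libraries and 87.9, 79.1 and 85.3 FPKM in the knockdown libraries, a log2FC of 2.83 ± 0.10 (adjusted p = 7.09e-05), opposite to MMP1. LPCAT2, which lies 2381 bases from MMP2 on the same strand, also rose (log2FC 1.34), and a further non-coding transcript overlaps MMP2. MMP3, the neighbour of MMP1 in the same gene cluster, fell from 3.94 to 1.28 FPKM (-1.34 ± 0.20), and the membrane-bound MMP14 fell from 39.6 to 23.5 FPKM (-0.74 ± 0.05). The sheddases ADAM9, ADAM17 and ADAM19 rose by 0.77 ± 0.05, 0.87 ± 0.06 and 1.32 ± 0.06. In the plasminogen system, the receptor PLAUR (-0.84 ± 0.05) and the tissue activator PLAT (-0.48 ± 0.04) fell. Of 8 tested serpins 3 fell, SERPINB2 most, and 4 rose (37.5% and 50%).

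Calls among cytokine genes and products of the ERK cascade were mostly falls. Of 27 tested NF-kB and cytokine genes 11 fell and 1 rose (40.7% and 3.70%, median log2FC -0.19). Of 23 ERK output and feedback genes 13 fell and 1 rose (56.5% and 4.35%, median -0.37). The shares over all protein-coding genes were 17.9% and 13.4%. CXCL8 (chr4:73740519-73743716, plus strand) was measured at 60.5, 49.8 and 57.1 FPKM in the control libraries and 14.7, 15.6 and 16.0 FPKM in the knockdown libraries, a log2FC of -1.82 ± 0.08 (adjusted p = 0.000105). CXCL5, a related chemokine, fell from 92.0 to 40.2 FPKM (-1.18 ± 0.07), and CXCL1 rose slightly (0.32 ± 0.08), a call lost without siC replicate 2, siC replicate 3, siI1 replicate 1 or siI1 replicate 3, with an adjusted p of up to 0.115. Among interleukins, IL1A went from 1.83, 1.79 and 1.89 to 0.248, 0.196 and 0.167 FPKM and IL24 from 6.46 to 2.43 FPKM (-1.26 ± 0.16). LIF, a ligand of the gp130 receptor, fell from 16.4 to 10.1 FPKM (-0.66 ± 0.09). Of the NF-kB subunits, NFKB2 fell (-0.60 ± 0.10), and RELA had a log2FC of -0.23 ± 0.14 that did not pass.

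Feedback inhibitors of ERK signalling are commonly read as a measure of its activity. SPRY2 (chr13:80335976-80341126, minus strand), which restrains receptor tyrosine kinase signalling, was measured at 45.4, 45.9 and 43.1 FPKM in the control libraries and 17.5, 16.8 and 16.6 FPKM in the knockdown libraries (log2FC -1.37 ± 0.05, adjusted p = 6.28e-05). The ERK phosphatase DUSP5 went from 50.8, 54.7 and 49.9 to 19.6, 17.5 and 16.0 FPKM (-1.53 ± 0.08), and DUSP6 and SPRY4 fell as well (-0.85 ± 0.07 and -0.76 ± 0.12). The Sprouty-related inhibitor SPRED1 was the member that rose (0.25 ± 0.06), a call lost without siC replicate 1, siC replicate 2, siI1 replicate 2 or siI1 replicate 3, with an adjusted p of up to 0.0877. The ERK-induced transcription factors ETV4 (-1.14 ± 0.12), ETV5 (-0.51 ± 0.05) and FOSL1 (-0.51 ± 0.07) fell, whereas MYC stayed near its control level (-0.04 ± 0.05, adjusted p = 0.551). Upstream of the cascade, 3 of 5 tested EGF family and other receptor ligands fell (60%, beside 17.9% of all protein-coding genes). These were AREG, HBEGF from 27.6, 28.1 and 29.7 to 9.81, 9.19 and 11.6 FPKM (-1.44 ± 0.09) and EREG (-0.77 ± 0.10). Several receptors rose, with AXL from 276 to 519.7 FPKM (0.91 ± 0.05) together with its ligand GAS6 (0.84 ± 0.06), KIT from 2.12 to 7.28 FPKM (1.57 ± 0.11) and ROR1 from 0.765, 0.636 and 0.537 to 4.53, 5.35 and 4.14 FPKM (2.17 ± 0.14). EGFR itself rose slightly (0.24 ± 0.04).

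The start-site sequences of the falling cytokine, ERK output, receptor tyrosine kinase, EGF ligand and protease genes were examined for the AP-1 site TGANTCA, which reads the same on both strands and is bound by FOS and JUN family dimers. This motif was chosen after the values were seen. Of 37 falling members 27 had a promoter in the RefSeq table (GRCh38.p14, 250 bases before to 50 after the start), and 5 of these (18.5%) held the site, beside 7.76% of all 27305 promoters. The 3 stretches below belong to the genes with the largest falls among those 5, with the site in capitals.
SERPINB2 (chr18:63887583-63887629, plus strand): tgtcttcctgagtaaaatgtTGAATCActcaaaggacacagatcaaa
CXCL8 (chr4:73740412-73740458, plus strand): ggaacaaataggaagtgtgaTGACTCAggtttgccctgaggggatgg
IL1A (chr2:112784444-112784525, minus strand): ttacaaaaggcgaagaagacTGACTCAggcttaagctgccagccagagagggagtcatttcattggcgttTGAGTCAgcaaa
A match describes the letters only. Of 7 tested AP-1 subunits 2 fell (28.6%, beside 17.9% of all protein-coding genes) and 5 did not pass. FOSL1 fell by the log2FC given above and FOSL2 by -0.29 ± 0.06, the latter named after its value was seen.

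Calls among interferon-stimulated genes were mostly rises. Type I interferon signals through IFNAR1, IFNAR2 and the JAK1 and TYK2 kinases to STAT transcription factors, which bind the interferon-stimulated response element of antiviral genes. Of 48 tested genes of the response 22 rose and 2 fell (45.8% and 4.17%, beside 13.4% and 17.9% of all protein-coding genes). Their median log2FC was 0.35. Of 18 genes of MHC class I presentation 8 rose (44.4%) and none fell at the threshold (median 0.37). IFITM1 (chr11:310041-315272, plus strand), an antiviral membrane protein, was measured at 0.288, 0.423 and 0.513 FPKM in the control libraries and 5.12, 3.85 and 5.26 FPKM in the knockdown libraries, from 2, 3 and 4 reads in the control libraries and 42, 30 and 48 in the knockdown libraries. Its log2FC was 2.53 ± 0.17 (adjusted p = 0.000371). Its neighbours in the same cluster, IFITM2 and IFITM3, share sequence with it, and reads may be split between them. IFITM3 rose from 7.03 to 14.5 FPKM (0.99 ± 0.16). SAMD9L, a translation inhibitor of poxvirus defence, rose from 2.07, 1.69 and 2.20 to 9.72, 10.6 and 10.6 FPKM (2.12 ± 0.10).

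The other effectors that passed the test rose by less than 2-fold, and 16 of all 33 tested effectors did not pass. IFIT1, IFIT2 and IFIT3, which bind viral RNA, rose by 0.75 ± 0.11, 0.74 ± 0.11 and 0.69 ± 0.08, IFI6 by 0.61 ± 0.11 and OAS2 by 0.84 ± 0.15. Upstream, the transcription factor IRF1 rose from 4.52 to 7.90 FPKM (0.74 ± 0.09) and JAK1 from 16.2 to 26.7 FPKM (0.70 ± 0.09). The RNA sensor DDX58 (RIG-I) moved in the opposite direction, from 6.80, 7.60 and 6.94 to 3.87, 3.60 and 3.51 FPKM (-0.87 ± 0.08). IFNAR1 also fell (-0.35 ± 0.07), a call lost without siC replicate 2, siC replicate 3, siI1 replicate 2 or siI1 replicate 3, with an adjusted p of up to 0.0709. In the MHC class I group all 5 tested heavy and light chains rose, although the call of a heavy chain was lost without siC replicate 2, siC replicate 3, siI1 replicate 1, siI1 replicate 2 or siI1 replicate 3 (adjusted p of up to 0.107). Among them were HLA-B from 1.41 to 2.80 FPKM (0.78 ± 0.15) and B2M from 71.7 to 103 FPKM (0.52 ± 0.06). The peptide-trimming protease ERAP1 rose from 15.5, 15.8 and 16.1 to 28.0, 28.0 and 31.2 FPKM (0.86 ± 0.06) and the immunoproteasome subunit PSMB10 from 5.78 to 10.1 FPKM (0.76 ± 0.08). HLA genes are variable and alike, so their single values are less certain than those of other genes.

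The core of the interferon-stimulated response element, GAAA followed by any 2 bases and GAAA on either strand, was searched in the same promoter table. Of 30 rising members of both lists 23 had a promoter, and 12 of these (52.2%) held the core, beside 3.65% of all 27305 promoters. Both lists hold genes already known for the interferon response or class I presentation. The share among list members that did not rise was not counted, so no conclusion about the rises in ES2 is drawn from it. The stretches of IFITM1 and IFITM3, which had the first and the third largest rises, and of IFI6 and IFIT1, which hold several copies, are shown with the core in capitals.
IFITM1 (chr11:313980-314063, plus strand): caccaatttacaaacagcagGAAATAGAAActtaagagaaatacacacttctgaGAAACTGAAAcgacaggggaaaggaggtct
IFITM3 (chr11:320866-320932, minus strand): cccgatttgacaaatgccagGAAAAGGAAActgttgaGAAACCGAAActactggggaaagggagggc
IFI6 (chr1:27672256-27672368, minus strand): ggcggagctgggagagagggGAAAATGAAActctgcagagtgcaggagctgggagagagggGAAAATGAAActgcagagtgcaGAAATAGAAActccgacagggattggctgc
IFIT1 (chr10:89392487-89392549, plus strand): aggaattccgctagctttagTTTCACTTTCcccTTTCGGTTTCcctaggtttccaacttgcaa
The cores of IFIT1 appear here as TTTC, any 2 bases and TTTC, the reverse complement. SAMD9L, the second in the order, was in the table and held no match in this window.

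Part of the cell division genes fell. Of 46 tested G2 and mitosis genes 20 fell (43.5%) and none rose at the threshold (median log2FC -0.27). When libraries were scaled to the same FPKM sum, 14 fell. Of 40 DNA replication genes 14 fell and 4 rose (35% and 10%), and 7 and 4 did so with the same scaling. The shares over all protein-coding genes were 17.9% and 13.4%, without this scaling. The ubiquitin-conjugating enzyme UBE2C, which drives exit from mitosis, went from 65.9, 71.4 and 51.7 to 34.4, 26.6 and 35.2 FPKM (-0.96 ± 0.15). AURKB, a kinase of the chromosomal passenger complex, fell from 46.2 to 24.9 FPKM (-0.88 ± 0.12), CCNB1 (cyclin B1) from 98.6 to 59.8 FPKM (-0.72 ± 0.07) and PLK1 from 19.4 to 12.3 FPKM (-0.64 ± 0.06). CCNE1, the cyclin of S phase entry, fell from 7.44 to 3.33 FPKM (-1.04 ± 0.13), and so did the CDK inhibitor CDKN1A, from 2.69 to 1.18 FPKM (-0.94 ± 0.14). MCM4, a subunit of the replicative helicase, rose from 59.1 to 77.8 FPKM (0.40 ± 0.05).

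Replication-dependent histone genes, whose mRNAs are made in S phase and carry a stem-loop in place of a poly(A) tail, fell together. Libraries depleted of ribosomal RNA hold these mRNAs. Of 54 tested genes 51 fell and none rose at the threshold (median log2FC -0.96), beside 17.9% and 13.4% of all protein-coding genes. In no other list examined was the share of falls as high. Their summed level was 20459, 23020.0 and 20600.0 FPKM in the control libraries and 12033, 10557 and 11562 FPKM in the knockdown libraries. All 5 tested linker histone H1 genes and all 11 H4 genes were among those that fell. HIST3H2BB fell from 18.0, 17.9 and 15.9 to 6.29, 6.75 and 6.46 FPKM (-1.34 ± 0.07). HIST1H2BK, with a wide spread in the controls (346, 372 and 217 FPKM), had a log2FC of -1.47 ± 0.28, a call lost without siC replicate 1 or siI1 replicate 3, with an adjusted p of up to 0.0547. Histone genes are near copies of each other, so the values of single genes are uncertain.

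**Figure D3:**
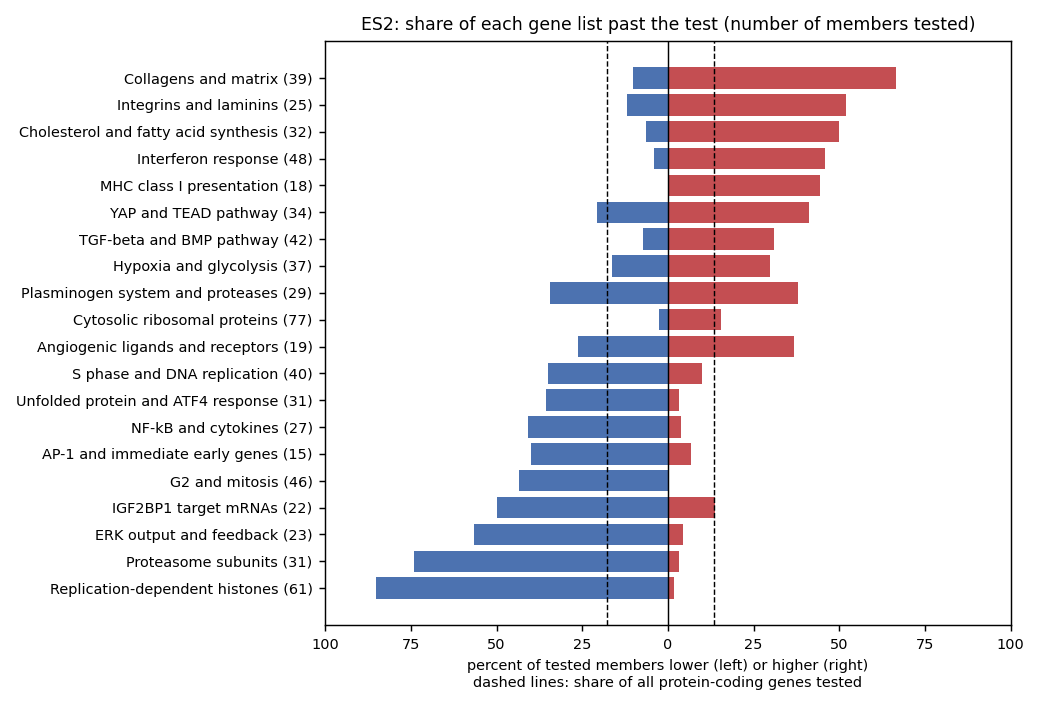
Share of tested members of 20 gene groups that fell (blue, left) or rose (red, right) in ES2, in percent on the x axis, with the number tested in brackets and dashed lines at the shares of all protein-coding genes (17.9% and 13.4%). Histones (85.2% lower, processing factors included) and proteasome subunits (74.2% lower) stand at the bottom and matrix genes (66.7% higher) at the top.

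Proteasome subunits fell as a group. Of 31 tested subunits 23 fell and 1 rose (74.2% and 3.23%, beside 17.9% and 13.4% of all protein-coding genes). The median log2FC was -0.31, and 16 fell when libraries were scaled to the same FPKM sum. PSMD2, a scaffold of the regulatory particle, was measured at 164, 174 and 166 FPKM in the control libraries and 85.4, 80.9 and 86.7 FPKM in the knockdown libraries, a log2FC of -0.99 ± 0.05 (adjusted p = 0.000116), the largest fall of the list. PSMC4, an ATPase of the same particle, fell from 52.9 to 31.0 FPKM (-0.76 ± 0.06), and PSMA2 was the subunit that rose (0.44 ± 0.07). Of 20 tested cytosolic aminoacyl-tRNA synthetases 10 fell and 1 rose (50% and 5%), with FARSA at -0.71 ± 0.09. With libraries scaled to the same FPKM sum, 5 of them fell. In the ATF4 branch of the amino acid and unfolded protein response 8 of 12 genes (66.7%) fell and none rose at the threshold. These included ATF4 itself (-0.35 ± 0.06), SESN2 (-1.25 ± 0.10), a stress-induced inhibitor of mTORC1, CHAC1 (-0.90 ± 0.11) and asparagine synthetase ASNS (-0.82 ± 0.08). The chaperones of the endoplasmic reticulum moved less, with 2 of 15 lower and 1 higher (13.3% and 6.67%). Both shares lie under the 17.9% and 13.4% of all protein-coding genes. The chaperone HSPA5 stood at -0.31 ± 0.05.

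Enzymes of cholesterol synthesis rose. Of 22 tested cholesterol genes 13 rose and 1 fell (59.1% and 4.55%), and of 10 fatty acid genes 3 rose and 1 fell (30% and 10%). The shares over all protein-coding genes were 13.4% and 17.9%. HMGCS1, which makes the precursor of mevalonate, went from 7.52, 6.26 and 8.87 to 19.6, 19.4 and 20.5 FPKM (1.35 ± 0.12) and the sterol demethylase MSMO1 from 11.8, 12.2 and 11.6 to 28.4, 32.8 and 30.2 FPKM (1.32 ± 0.06). Of the controlling factors, SREBF2 rose (0.54 ± 0.05) and SREBF1 fell from 13.8 to 7.65 FPKM (-0.81 ± 0.07). In glycolysis, 6 of 21 genes fell and 4 rose (28.6% and 19.0%, beside 17.9% and 13.4% of all protein-coding genes). The neuronal enolase ENO2 fell from 6.12 to 2.71 FPKM (-1.06 ± 0.14) and PFKFB3 from 8.63 to 5.08 FPKM (-0.71 ± 0.09), whereas HIF1A rose from 39.1 to 56.8 FPKM (0.54 ± 0.04). NQO1, a quinone reductase, rose from 66.1, 67.2 and 68.9 to 136, 135 and 140.3 FPKM (1.02 ± 0.04). It belongs to a list of 19 tested NRF2 targets of which 5 fell and 4 rose (26.3% and 21.1%, beside 17.9% and 13.4% of all protein-coding genes). These NRF2 falls numbered 3 without siC replicate 1, siC replicate 3 or siI1 replicate 3, and the rises numbered 2 without any of these or siI1 replicate 1.

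Of 22 tested mRNAs reported as targets of IGF2BP1, 11 fell and 3 rose (50% and 13.6%, beside 17.9% and 13.4% of all protein-coding genes). Their median log2FC was -0.36. Some of them were reported by the study from these libraries, so that their count is no independent evidence. Beside HDLBP, the transcription factor SRF fell from 13.9, 14.6 and 16.0 to 5.86, 5.48 and 6.82 FPKM (-1.23 ± 0.10) and ACTB, a beta-actin mRNA whose localisation depends on the protein family, from 729.5 to 509 FPKM (-0.52 ± 0.10). MYC, as given above, did not pass. HMGA2 (0.48 ± 0.07) and FSCN1 (0.38 ± 0.06) were among the rises. Among SRF and actin genes 11 of 30 fell and 5 rose (36.7% and 16.7%, beside 17.9% and 13.4% of all protein-coding genes). ACTN4 (actinin-4) stood at -0.60 ± 0.04 and TPM1 (tropomyosin-1) rose from 21.1, 19.9 and 21.7 to 50.3, 51.3 and 52.0 FPKM (1.27 ± 0.05). The 11 falls became 7 without siC replicate 2, siI1 replicate 2 or siI1 replicate 3.

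YAP1, the coactivator of TEAD transcription factors, fell from 79.9, 75.7 and 78.1 to 53.9, 51.3 and 50.7 FPKM (-0.58 ± 0.04), whereas its paralog WWTR1 (TAZ) rose from 5.59 to 8.08 FPKM (0.49 ± 0.06). Of 20 tested target genes 12 rose and 4 fell (60% and 20%, beside 13.4% and 17.9% of all protein-coding genes). CCDC80 (1.67 ± 0.07), F3 (tissue factor, 1.03 ± 0.17) and AXL had the largest rises, and the classical target CYR61 stood at 0.26 ± 0.07, a call lost without siC replicate 1, siC replicate 2, siC replicate 3, siI1 replicate 1 or siI1 replicate 3, with an adjusted p of up to 0.122. Over the whole list of 34 tested genes the 14 rises became 9 without siC replicate 1, and the 7 falls became 4 without siI1 replicate 1 and 3 without siI1 replicate 2 or siI1 replicate 3. In the BCL2 family, 4 of 5 pro-survival members fell (80%, beside 17.9% of all protein-coding genes), with MCL1 at -0.37 ± 0.05 and BCL2L1 at -0.44 ± 0.06 beside BCL2A1. The call of the remaining one, BCL2L2, was lost without siC replicate 1, siC replicate 2, siI1 replicate 1 or siI1 replicate 3, with an adjusted p of up to 0.0627. Of 9 tested pro-apoptotic members 7 did not pass, BOK fell and BMF rose from 0.429, 0.392 and 0.356 to 1.84, 1.58 and 1.83 FPKM (1.33 ± 0.16). CAV2 (caveolin-2) rose from 7.76, 7.48 and 9.53 to 37.7, 41.3 and 41.2 FPKM (2.22 ± 0.10) and its partner CAV1 from 176 to 287 FPKM (0.71 ± 0.04).

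Of the lincRNAs, LINC01151 had the largest rise, from 1.09, 1.87 and 2.19 to 19.1, 20.4 and 17.8 FPKM (3.18 ± 0.19), and overlaps a further non-coding gene that rose as well (2.13). ZHX2, which lies 47851 bases away, rose by 0.55 on the log2 scale. AL590004.4 rose from 0.510 to 5.87 FPKM (2.66 ± 0.11) and AP002884.3 from 0.187 to 3.55 FPKM (2.55 ± 0.14). The largest falls were AC116345.1 from 3.65, 4.18 and 3.62 to 0.440, 0.371 and 0.475 FPKM (-2.22 ± 0.13), AL162411.1 (-1.59 ± 0.23) and FAM27C (-1.38 ± 0.15). With 1 library left out, whichever it was, there were 21 to 27 falls and 44 to 68 rises among lincRNAs, the fewest rises without siI1 replicate 3.

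To find what was particular to ES2, the log2FC of each gene was set against that in each other line, in a joint limma fit over all 24 libraries. A gene was called particular when its ES2 change passed the test and differed in the same direction from A549, MV3 and PANC1, by the largest of the 3 p-values adjusted over 12816 genes. Among the 9650 protein-coding genes with enough signal in every line, 58 (0.601%) met this as falls and 185 (1.92%) as rises. The rises numbered 105 and the falls 2 when libraries were scaled to the same FPKM sum. A further 38 genes lower and 103 genes higher at least 2-fold in ES2, with ESM1, SERPINB2, MMP1, MMP2 and EFEMP1 among them, were outside this comparison, because they did not reach the minimum level in every line. PANC1 cells were harvested later than the others, so that line and time cannot be told apart there.

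Among the falls, SPRY2 had the largest difference. Its log2FC was -1.37 in ES2 and 0.01 ± 0.16, -0.05 ± 0.07 and 0.02 ± 0.09 in A549, MV3 and PANC1, and the difference from the nearest line was -1.32 ± 0.15 (adjusted p = 1.23e-05). FOXD1 differed by -1.20 ± 0.11 from MV3 (adjusted p = 9.57e-07) and rose in A549 (0.50 ± 0.11). ENO2 fell in ES2 and rose in A549 (0.78 ± 0.10), with a difference from the nearest line of -1.15 ± 0.14. DUSP5 differed by -0.84 ± 0.15, CXCL8 by -1.17 ± 0.28 (adjusted p = 0.0332) and the EGR corepressor NAB2 by -0.87 ± 0.19. ECI2, an enzyme of fatty acid oxidation, differed by -0.98 ± 0.15, SPSB1, an adaptor of a ubiquitin ligase, by -0.96 ± 0.13, SMTN (smoothelin) by -0.85 ± 0.13 and PREX1, a RAC activator, by -0.81 ± 0.17. With libraries scaled to the same FPKM sum, the differences of FOXD1 and DUSP5 kept an adjusted p under 0.05 and those of the other 8 did not. Before this scaling the FPKM sums were 526337 to 756438 in PANC1 control and 977547 to 1191710 in PANC1 knockdown libraries. In ES2 they were 454748 to 505643 in control and 432975 to 459802 in knockdown libraries. The part of the PANC1 sums in these losses was not tested. The call of CXCL8 was also lost without siC replicate 1, siC replicate 3, siI1 replicate 1, siI1 replicate 2 or siI1 replicate 3.

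Among rises particular to ES2 were 7 of the 16 matrix genes and 7 of the 31 TGF-beta pathway genes tested in all lines. COL5A1 had a log2FC of 2.54 in ES2, 0.75 ± 0.04 in MV3, -0.28 ± 0.06 in A549 and -0.35 ± 0.14 in PANC1, a difference from the nearest line of 1.80 ± 0.10 (adjusted p = 2.08e-09). SMAD7 differed by 1.51 ± 0.13, SMAD3 by 0.89 ± 0.09, ITGAV by 1.14 ± 0.09 and THBS1 by 1.00 ± 0.09. SCG2 rose in all lines, by 1.72, 1.41 and 1.52 on the log2 scale in A549, MV3 and PANC1, and by 2.64 ± 0.29 more in ES2 than in the nearest line. ATP8B1 differed by 2.47 ± 0.14 (adjusted p = 2.84e-09), TUFT1 (tuftelin) by 1.80 ± 0.15, the transmembrane protein HEG1 by 1.57 ± 0.14, the mitochondrial protein LACTB by 1.28 ± 0.11 and the heme-binding PGRMC2 by 1.27 ± 0.17. IFITM1 differed by 1.85 ± 0.46 (adjusted p = 0.0358), which was lost without siC replicate 1, siC replicate 2, siC replicate 3, siI1 replicate 1 or siI1 replicate 3.

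**Figure D4:**
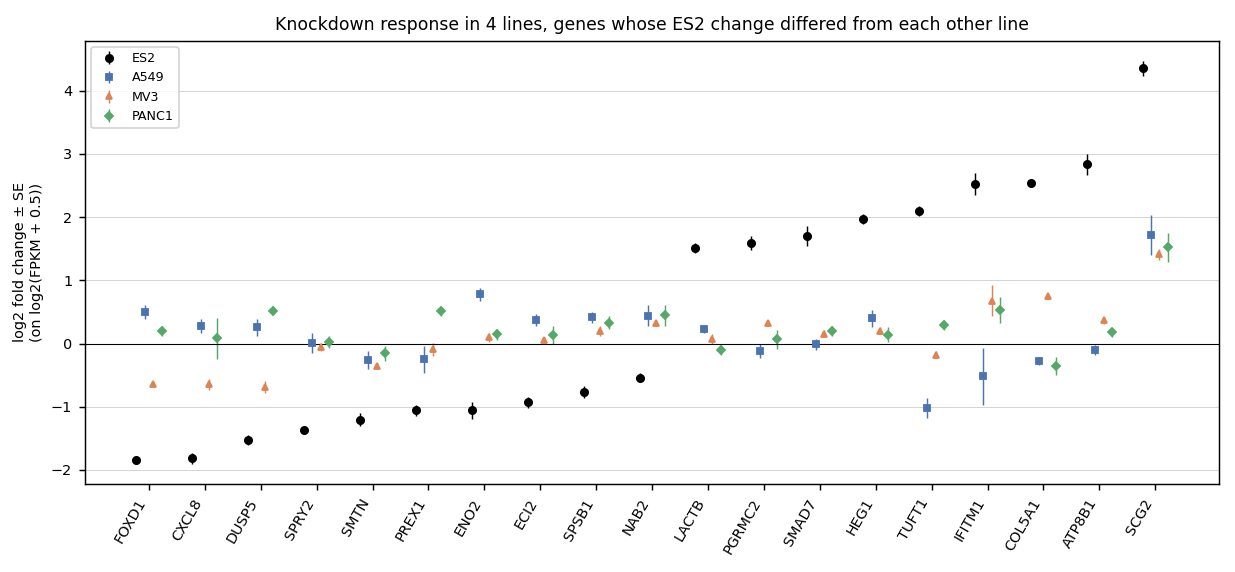
Log2FC ± SE upon IGF2BP1 knockdown (y axis) in ES2 (black), A549 (blue), MV3 (orange) and PANC1 (green) for the falls and rises particular to ES2 that the text describes, chosen by their difference from the nearest line. SPRY2 sits near 0 in the 3 other lines, CXCL8 and FOXD1 fall less in MV3, and SCG2 rises in all 4 lines, by 4.35 in ES2.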

How the data were processed

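Total RNA was depleted of ribosomal RNA and sequenced as paired-end, directional libraries. The submitters' processing notes name cutadapt 1.14, HISAT2 2.1.0 (hg38), SAMtools 1.5, featureCounts 1.5.3 and edgeR 3.30.3, with Ensembl release 89 gene models; the strand setting is not given in the sources used here. The authors deposited FPKM values scaled with TMM for each library, with the gene length in bases and their own log2 fold changes and p-values (pValue and FDR columns). These deposited log2 fold changes and p-values were not used.

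FPKM values were whole multiples of 1 read per gene within a tolerance of 0.01, so reads were recovered for depth, low genes and the limma voom alternative. Libraries of a group differed beyond sampling noise and were kept as separate replicates. The main test was limma 3.58.1 (R 4.3.3, moderated with trend) on log2(FPKM + 0.5) in ES2 alone, over the genes averaging 0.5 FPKM or more, and p-values were adjusted by Benjamini-Hochberg across these 16920 genes. Lines were compared in a joint limma fit over 8 groups. Named genes were the 12 protein-coding genes with the largest change per direction (mean of at least 1 FPKM, groups not overlapping), 3 lincRNAs and 3 members of each of 36 lists per direction, the 10 most particular genes per direction, and pathway members by role. COPG2, IL7R, LPCAT2, SEPTIN2 and ZHX2 were named as neighbours after their values were seen. Some genes that these rules name are not reported here. The members and lists were chosen with earlier results of these data known. Tests were checked on simulated data. Alternatives were pseudocounts of 0.1 and 1, no minimum or 2 FPKM, 2 other scalings, voom, a replicate block, a separate spread per line and leaving out each library. Promoter stretches came from RefSeq (GRCh38.p14).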

Additional observations from a re-analysis of the deposited data

Results flagged for a closer look

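Of the named genes, 55 differed in their log2FC between ES2 and each other line, in the joint limma fit over 24 libraries with 3 per group (adjusted p under 0.05). As the 10 most particular genes per direction were named by this same test, the number rests in part on that choice. Among all 9650 protein-coding genes in the fit, 58 (0.601%) were particular to ES2 as falls and 185 (1.92%) as rises. The values that follow are differences of log2FC, ES2 minus the nearest line, with PANC1 harvested later than the other lines. Of the 18 falls, 2 (FOXD1 and DUSP5) kept an adjusted p under 0.05 when libraries were scaled to the same FPKM sum, and 29 of the 37 rises did.

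Among ERK feedback and signalling genes, the differences were -1.32 for SPRY2, -0.84 for DUSP5, -0.36 for ETV5, -1.17 for CXCL8 and -0.87 for NAB2. They were -1.20 for FOXD1, -0.96 for SPSB1, -0.85 for SMTN and -0.81 for PREX1. In the WNT pathway, the receptor FZD8 (-0.79) and the inhibitor SFRP1 (-0.47) fell more in ES2, while the receptor FZD2 (0.82) and the secreted DKK3 (0.86) rose more. The proteasome subunits PSMD2 and PSMC4 differed by -0.63 and -0.44. Metabolic and other falls were those of ENO2 (-1.15), ECI2 (-0.98), STX1A, a syntaxin of exocytosis (-0.61), the pro-apoptotic BCL2 relative BOK (-0.53) and HSPA5 (-0.27).

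Matrix genes that rose more in ES2 were COL5A1 (1.80), COL5A2 (0.68), SPARC (0.84), SERPINH1 (0.80), LOXL2 (0.49), THBS1 (1.00) and BMP1 (0.85). Integrin chains were ITGAV (1.14), ITGB5 (0.99) and ITGB1 (0.70). In the TGF-beta pathway the differences were 1.51 for SMAD7, 0.92 for SKIL, 0.89 for SMAD3 and 0.69 for SMAD6. The sheddases ADAM19 (0.60) and ADAM9 (0.32), the receptor AXL (0.36) and its ligand GAS6 (0.63) rose more as well. In interferon and presentation genes the differences were 1.85 for IFITM1, 0.92 for IFIT2 and 0.91 for ERAP1.

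The remaining rises were SCG2 (2.64), ATP8B1 (2.47), TUFT1 (1.80), HEG1 (1.57), LACTB (1.28), PGRMC2 (1.27), CAV2 (1.16), TPM1 (0.89) and the desaturase SCD (0.57). NQO1 (0.55), the pocket protein RBL2 (0.39), the helicase subunits MCM6 (0.48) and MCM4 (0.39) and the lysosomal protease CTSZ (0.39) had smaller differences. With 1 ES2 library left out, 45 to 51 of the 55 kept an adjusted p under 0.05, and 10 were lost without siC replicate 1 or siI1 replicate 3. ADAM9, CTSZ, CXCL8, HSPA5, IFIT2, IFITM1, MCM6, PSMC4 and STX1A were lost in both of these cases. Of these 2 fits, ETV5 was lost only without siC replicate 1 and RBL2 only without siI1 replicate 3.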

How the results depend on the processing

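Over the other settings of the fit within ES2, 3895 fold changes of named genes kept their direction and their side of the threshold, 273 no longer passed, 4 newly passed and 2 changed sign, neither of them a call: MYC was at 0.026 with libraries scaled to the same FPKM sum and TGFB1 at 0.018 without siI1 replicate 2 (-0.30 to 0.018 over the 6 fits with 1 library left out). Scaling to the same FPKM sum gave 1291 protein-coding falls, 26 lincRNA falls, and 2 falls and 105 rises particular to ES2; 19 of 300 named genes then lost their call. A minimum of 2 FPKM left 49 lincRNA rises. The limma voom test on recovered reads gave 187 falls and 295 rises of at least 2-fold and 89 falls particular to ES2. Replicate numbers did not pair the samples (correlations of deviations -0.0056, -0.0014 and -0.0057 for numbers 1 to 3), and a replicate block gave 1299 protein-coding falls, 968 rises, 22 lincRNA falls, and 35 falls and 113 rises particular to ES2, with 39 named calls lost. Leaving out 1 library at a time gave 958 to 1177 protein-coding rises, 21 to 27 lincRNA falls and 44 to 68 lincRNA rises, and 23 to 45 named calls lost, most without siI1 replicate 3. Other pseudocounts lost no named call. The causes of these shifts were not tested. Genes under the minimum of 0.5 FPKM, and low genes resting on a few reads, were not resolved at this depth.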

Other observations

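Of all protein-coding genes tested 17.9% fell and 13.4% rose, to be read beside the shares in brackets below. Immediate early genes, which answer growth signals within minutes, fell in 6 of 15 tested and rose in 1 (40% and 6.67%), and the falls numbered 3 without siC replicate 1. EGR1 had a log2FC of -0.95 ± 0.21, IER2 of -0.76 ± 0.15 and MAFF of -1.16 ± 0.09. The call of EGR1 was lost without siC replicate 2 or siC replicate 3, with an adjusted p of up to 0.058, and that of IER2 without siC replicate 1 or siI1 replicate 3, with an adjusted p of up to 0.0555. Of 22 tested p53 target genes 6 fell and 6 rose (27.3% each), with SESN2 and CDKN1A among the falls and TP53INP1 (1.14 ± 0.17) and CCNG1 (0.68 ± 0.06) among the rises. The falls numbered 3 without siC replicate 3, siI1 replicate 2 or siI1 replicate 3. In the angiogenic list 5 of 19 fell and 7 rose (26.3% and 36.8%). Beside ESM1, the ligand ANGPT2 fell from 1.33 to 0.261 FPKM (-1.26 ± 0.18) and PDGFA from 12.004 to 6.01 FPKM (-0.94 ± 0.07), whereas PDGFB rose from 3.08 to 7.34 FPKM (1.13 ± 0.08) and its receptor chain PDGFRA from 2.81 to 5.45 FPKM (0.84 ± 0.09). In the WNT pathway 3 of 25 fell and 6 rose (12% and 24%), and the rises numbered 3 without siC replicate 1, siC replicate 2 or siI1 replicate 3. FZD8 fell from 7.23 to 2.94 FPKM (-1.17 ± 0.07) and DKK3 rose from 80.2 to 214 FPKM (1.41 ± 0.04). Of 10 tested Notch genes 1 fell and 2 rose (10% and 20%), with the ligand JAG1 at 0.76 ± 0.12. In this list 1 rise was lost when any library except siI1 replicate 3 was left out, and the fall was lost without siC replicate 1, siI1 replicate 2 or siI1 replicate 3.

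Epithelial and mesenchymal genes moved in both directions, with 3 of 14 lower and 4 higher (21.4% and 28.6%). SNAI2, a repressor of epithelial genes, rose from 3.33 to 8.45 FPKM (1.24 ± 0.18), together with the cadherin CDH2 (0.63 ± 0.08) and the keratin KRT7 (0.56 ± 0.06), and PRRX1 fell (-0.64 ± 0.09). Without siC replicate 1 or siI1 replicate 3 only 1 of the 3 falls passed. Of 72 tested nuclear subunits of oxidative phosphorylation 14 fell and 4 rose (19.4% and 5.56%, beside 17.9% and 13.4% of all protein-coding genes), with COX4I1 from 74.4 to 39.1 FPKM (-0.92 ± 0.06), and 7 to 9 fell without siC replicate 1, siC replicate 2, siI1 replicate 2 or siI1 replicate 3, with 2 rises in the latter 3 cases. Scaling to the same FPKM sum left 8 of these falls, 3 of the snoRNA host falls and 5 of the RNA-binding protein falls given next. Of 77 tested ribosomal protein genes 2 fell and 12 rose (2.60% and 15.6%, so that the rises were near the share over all protein-coding genes), all by less than 0.5 on the log2 scale, with RPL17 at 0.42 ± 0.07. The rises numbered 6 without siC replicate 1 and 5 without siI1 replicate 3, and the falls 0 to 4 with a library left out (16 falls and 21 rises by limma voom on recovered reads). Of 18 tested snoRNA host transcripts 8 fell (44.4%, beside 13% of all genes tested), SNHG3 most (-0.53 ± 0.06). When any library except siC replicate 1 was left out, 2 to 5 fell. Among 32 RNA-binding partners and microRNA factors 9 fell and 4 rose (28.1% and 12.5%), with the Argonaute AGO1 at -0.75 ± 0.09 and DICER1 at 0.56 ± 0.06. Of 26 tested lysosomal and autophagy genes 4 fell and 2 rose (15.4% and 7.69%), both under the shares over all protein-coding genes, with GUSB from 22.4 to 11.3 FPKM (-0.95 ± 0.05). In this list 2 fell without siC replicate 2, and 1 rose without siC replicate 1, siC replicate 2, siI1 replicate 2 or siI1 replicate 3. Of 26 tested E2F, cyclin and CDK inhibitor genes 8 fell and 2 rose (30.8% and 7.69%), with E2F4 at -0.55 ± 0.08 and CDKN2B at 0.77 ± 0.18, the latter call lost without siI1 replicate 1, siI1 replicate 2 or siI1 replicate 3, with an adjusted p of up to 0.0904. Of these genes 5 fell without siI1 replicate 2 and 1 rose without siI1 replicate 3. Of 9 tested caveolar genes 2 fell and 3 rose (22.2% and 33.3%), with CAVIN3 at -0.48 ± 0.09, and 1 fell without siI1 replicate 3.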
